A study of Mus musculus with 4 samples.

Results

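The genes described here encode hormones and other factors that fat cells secrete. The chosen genes were Lep, Adipoq, Retn, Cfd, Angptl8, Angptl4, Apln, Nnat, Rbp4 and Nampt, 10 in all, and every probe set annotated to a single one of them was taken. Single-gene probe sets, 8 in number, covered 7 of the 10 genes, out of 17097 genes on the array; Cfd, Nnat and Nampt were not analysed here. RNA came from the intact inguinal mammary gland, epithelium included, of Mt1-mmp(-/-) mice, which lack the membrane-anchored collagenase Mt1-mmp in every tissue, and of Mt1-mmp(+/+) littermates. All mice were 10 days old and of the outbred Swiss Black background. Each genotype had 2 arrays, labelled biological replicates, and whether each array held 1 animal is not given in the labels. The values are log2 expression values, and the medians of the arrays lay between 4.92 and 4.98.

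White fat works as an endocrine organ. Leptin, the product of Lep, reports the size of the fat store to the brain, and its transcript follows the fat content and insulin supply of the adipocyte. Adiponectin (Adipoq) acts on liver, muscle and vessels, while resistin (Retn) is made by adipocytes in mice. Angptl4 and Angptl8 restrain lipoprotein lipase, the enzyme that frees fatty acids from circulating triglyceride, and Apln encodes apelin, a peptide made by adipocytes and endothelium. In the young mammary gland the epithelium grows into a pad of such fat.

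The 250 bases before the annotated start of 5 of the genes are shown because 3 of them, Lep, Apln and Angptl8, were lower in both knockout arrays by more than 2-fold, while Adipoq and Retn differed little. The sequences are from RefSeq, build GRCm38.p6, read 5′ to 3′ along each gene's strand, and promoter windows were matched for 6 of the 7 genes, all but Angptl4. Capitals mark matches, on either strand, to 7 motifs. The C/EBP core was spelled TTGCNNAA and the sterol element TCACNCCAC. The E-box was spelled CACGTG, with no other letters allowed. For the GC box the search string was GGGCGG in both directions. The CCAAT box has the letters of its name. For the TATA element the string searched was TATAA, and the direct repeat was that of the hexamers that PPARG binds with its partner receptor.
Lep, chr6:29059971-29060220, plus strand: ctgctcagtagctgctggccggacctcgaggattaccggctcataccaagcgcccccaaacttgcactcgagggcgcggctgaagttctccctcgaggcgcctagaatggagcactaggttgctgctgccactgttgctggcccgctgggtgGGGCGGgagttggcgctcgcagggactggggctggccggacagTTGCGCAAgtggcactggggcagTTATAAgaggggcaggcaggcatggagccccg
Apln, chrX:48034854-48035103, minus strand: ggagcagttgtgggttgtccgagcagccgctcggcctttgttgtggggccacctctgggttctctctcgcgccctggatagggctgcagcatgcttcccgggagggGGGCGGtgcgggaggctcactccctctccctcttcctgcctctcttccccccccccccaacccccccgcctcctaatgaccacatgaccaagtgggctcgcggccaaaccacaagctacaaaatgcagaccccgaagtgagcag
Angptl8, chr9:21835260-21835509, plus strand: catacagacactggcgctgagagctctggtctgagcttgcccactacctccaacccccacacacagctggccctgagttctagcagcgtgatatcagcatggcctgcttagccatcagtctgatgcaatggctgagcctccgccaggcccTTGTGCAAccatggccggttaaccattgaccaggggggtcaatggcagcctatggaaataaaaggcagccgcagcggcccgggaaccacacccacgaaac
Adipoq, chr16:23146286-23146535, plus strand: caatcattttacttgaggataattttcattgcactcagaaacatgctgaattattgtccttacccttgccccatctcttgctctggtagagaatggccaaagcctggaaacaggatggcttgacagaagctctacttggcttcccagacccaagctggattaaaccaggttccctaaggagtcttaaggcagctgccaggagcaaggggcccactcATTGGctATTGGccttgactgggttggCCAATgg
Retn, chr8:3655520-3655769, plus strand: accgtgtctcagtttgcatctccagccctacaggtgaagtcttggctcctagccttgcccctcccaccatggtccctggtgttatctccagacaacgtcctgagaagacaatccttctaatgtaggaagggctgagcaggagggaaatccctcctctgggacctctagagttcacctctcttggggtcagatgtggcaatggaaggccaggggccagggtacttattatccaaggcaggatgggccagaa
The Lep window held the C/EBP core 55 to 48 bases before the start, on both strands since this match is its own reverse complement, with TATAA 31 to 27 bases before it, overlapping a reverse match at 32 to 28, and a GC box further upstream. Angptl8 held the C/EBP core at 100 to 93 bases, and Rbp4, not printed, held it before 1 of its 2 annotated starts. That Rbp4 start also had GC boxes and TATAA, and the other a CCAAT match. Apln, lower in knockout too, had no C/EBP core. The C/EBP core occurred in 9.56% of 32851 mouse promoter windows of this length. Adipoq held 3 CCAAT matches, against at least 1 in 33.8% of windows, and Apln 1 GC box, against 32.7%. Retn held none of these letters. The direct repeat occurred in 0.0335%, the sterol element in 1.05%, the E-box in 6.02% and TATAA in 22.8% of windows. These matches describe the letters and do not show binding.

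Mmp14, the symbol of Mt1-mmp on the array, was read first as a check of the labels. The brighter of its probe sets read 5.83 and 5.68 in knockout arrays, against 8.92 and 8.73 in the wild-type arrays, a difference of -3.07 ± 0.12 (log2, SE from limma, n = 2 per genotype). The other probe set gave 4.32 and 4.31 in knockout, against 6.11 and 5.87 in wild type. Both knockout arrays lay below both wild-type arrays. The labels do not say which exons were removed, so the position of these probe sets relative to the deletion is unknown. Tissue from outside the gland differed between arrays before any hormone was considered. Relative to the wild-type mean, the median of 17 skeletal muscle genes was -0.73 and 5.61 in knockout replicates 1 and 2, against -0.32 and 0.32 in wild-type replicates 1 and 2. For 10 epidermis and hair follicle genes the medians were 3.15 and -1.32 in knockout, against -0.85 and 0.85 in wild type. The part of this tissue in the differences below was not tested beyond leaving out each array.

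Lep, Apln, Angptl8 and Rbp4 were lower in both knockout arrays, by 2.25-fold to 31.9-fold in the mean of the pair, whereas Adipoq, Retn and Angptl4 differed by at most 1.30-fold. Of the 7 genes 5 had both knockout arrays below both wild-type arrays, which held for 32.5% of the 11078 tested genes. At least 2-fold lower without overlap were 4 of the 7, against 2.12% of tested genes, and 0 of the 7 were at least 2-fold higher, against 1.21%. Angptl4 alone had both knockout arrays above both wild-type arrays, against 26.3% of tested genes, and Adipoq overlapped. No gene passed a Benjamini-Hochberg adjusted p of 0.05 in limma, so 0 of 7 were called, where 0.0% of tested genes were. At an unadjusted limma p under 0.05, 4 of the 7 were lower and 0 higher, against 12.1% and 9.69% of tested genes, or 21.8% in either direction. The median difference of the 7 genes was -1.17, and that of all tested genes -0.02. An exact two-sided permutation test of 2 against 2 arrays cannot give a p below 0.333. The 7 genes were chosen with earlier results of these data known, so these counts describe them.

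**Figure D1:**
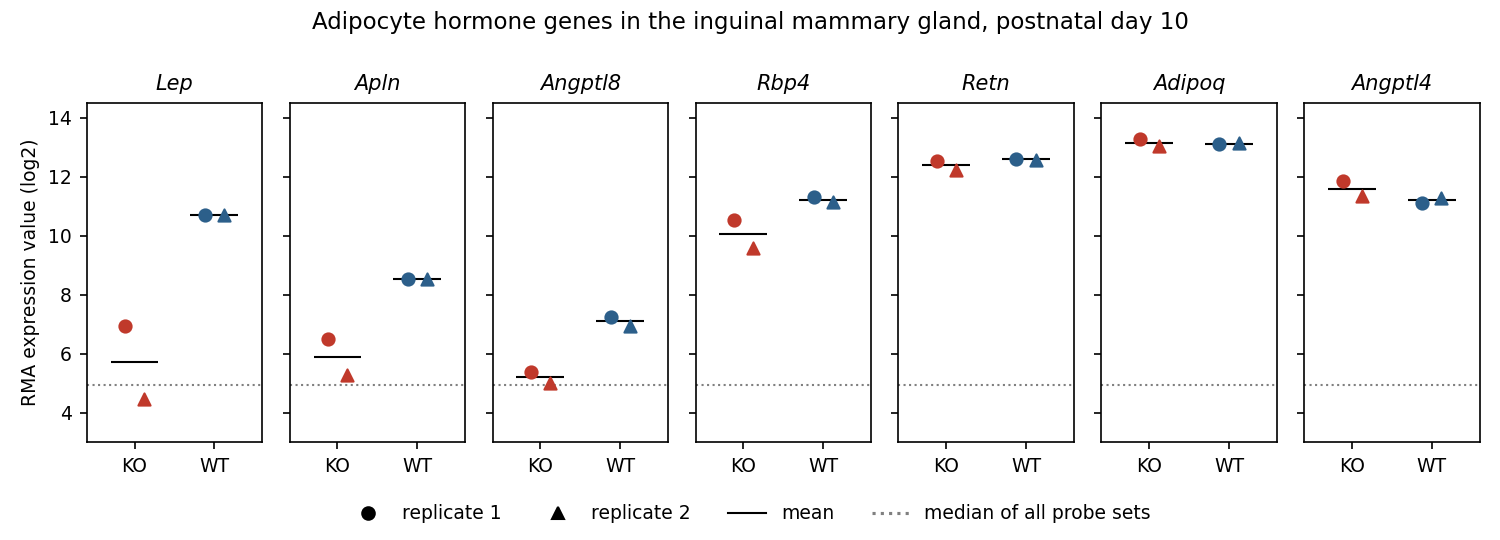
Expression value (log2) of the brightest probe set of each gene in the knockout (KO) and wild-type (WT) arrays; circles are replicate 1, triangles replicate 2, bars the mean of 2 arrays, and the dotted line the median of all probe sets, 4.94. Lep, Apln, Angptl8 and Rbp4 lie lower in both knockout arrays, Adipoq overlaps between genotypes, and heights are not comparable between genes.

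Lep had 6.95 and 4.48 in the knockout arrays, against 10.72 and 10.72 in the wild-type arrays. The wild-type arrays were nearly identical, while the knockout arrays lay 2.47 apart, and the groups were separated by more than this gap. The difference was -5.00 ± 0.89 (log2, SE, n = 2 per genotype), or 31.9-fold lower, with a limma adjusted p of 0.124. Of the 11078 tested genes only Serpina1b had a more negative difference. Against the wild-type mean Lep was 13.6-fold lower in knockout replicate 1 and 75.3-fold lower in knockout replicate 2. In replicate 2 its value was under 4.94, the median of all probe sets, where the summarisation compresses differences. The adjusted p was 0.00252 without knockout replicate 1 and 0.0216 without knockout replicate 2, but 0.820 and 0.846 without wild-type replicate 1 or 2, where no gene was called. Such a fit takes the spread of the wild-type pair for the lone knockout array too, and 24.6% and 4.99% of all tested genes were called lower in the 2 fits. Lep differed from the wild-type mean by -3.76 in knockout replicate 1, whose muscle median was -0.73 and epidermis median 3.15, and by -6.23 in replicate 2, where these were 5.61 and -1.32. The part of either tissue in the Lep values was not tested.

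Apln had 6.50 and 5.30 in knockout, against 8.53 and 8.52 in wild type. As for Lep, replicate 2 was the lower of the knockout arrays and the wild-type arrays were close together. The difference was -2.62 ± 0.44 (log2, SE, n = 2 per genotype), or 6.17-fold lower, with a limma adjusted p of 0.120. The difference was -3.22 without knockout replicate 1 and -2.03 without knockout replicate 2. Without wild-type replicate 1 or 2 the difference was -2.62 and -2.63. Apelin is also an endothelial product, so vessel markers are given beside it. Of 16 blood endothelial genes 7 were lower and 2 higher without overlap, against 32.5% and 26.3% of all tested genes. The medians of the 16 genes were -0.33 and 0.02 in knockout replicates 1 and 2, against 0.02 and -0.02 in wild-type replicates 1 and 2. The mean level of these genes was 8.98 and 9.29 in knockout and 9.28 and 9.26 in wild type, and their part in the Apln value was not tested. Aplnr, the apelin receptor of endothelium, had 11.68 and 11.93 in knockout and 11.95 and 11.89 in wild type, and the groups overlapped in both of its probe sets.

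The lipase inhibitors differed from each other in direction. Angptl8, which insulin and feeding induce, had 5.39 and 5.02 in knockout, against 7.24 and 6.96 in wild type. Both knockout values lay near the median of all probe sets, and the knockout arrays were 0.37 apart. The difference was -1.89 ± 0.19 (log2, SE, n = 2 per genotype), or 3.71-fold lower, with a limma adjusted p of 0.101. It was -2.08 without knockout replicate 1 and -1.71 without knockout replicate 2. Without wild-type replicate 1 or 2 the difference was -1.75 and -2.03. Angptl4, which fasting and fatty acids induce through PPAR receptors, had 11.84 and 11.34 in knockout, against 11.12 and 11.29 in wild type. Knockout replicate 2 exceeded the higher wild-type array by little, so the separation rested on replicate 1. The difference was 0.38 ± 0.21, or 1.30-fold, with a limma adjusted p of 0.363. Without knockout replicate 2 it was 0.63 with an adjusted p of 0.0493, in a fit that called 6.73% of tested genes higher, and without knockout replicate 1 it was 0.13. The adjusted p was 0.900 and 0.861 without wild-type replicate 1 or 2. A second Angptl4 probe set, below the brightness limit and so untested, gave 4.69 and 4.24 in knockout, against 4.12 and 3.88 in wild type.

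Rbp4, the carrier of retinol in blood, had 10.54 and 9.57 in knockout, against 11.31 and 11.13 in wild type. Replicate 2 again had the lower of the knockout values. The difference was -1.17 ± 0.36 (log2, SE, n = 2 per genotype), or 2.25-fold lower, with a limma adjusted p of 0.199. It was -1.66 without knockout replicate 1 and -0.69 without knockout replicate 2. Without wild-type replicate 1 or 2 the difference was -1.08 and -1.26. Of 9 other tested genes of retinoid transport and signalling, 2 were higher and 2 lower without overlap, against 26.3% and 32.5% of all tested genes. The 9 genes had a median of -0.06. Among them Rbp7, a retinol-binding protein of adipose endothelium, had 11.42 and 11.12 in knockout and 11.45 and 11.32 in wild type.

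Adiponectin and resistin transcripts differed little from wild type in the same glands. Both probe sets read near the top of the range of the arrays, where brightness can limit the differences shown. Whether this hid a difference between genotypes was not tested. Adipoq had 13.26 and 13.04 in knockout, against 13.10 and 13.12 in wild type, and the knockout values lay on either side of the wild-type pair. The difference was 0.04 ± 0.12 (log2, SE, n = 2 per genotype), with a limma adjusted p of 0.866, and it was -0.068 without knockout replicate 1. Retn had 12.54 and 12.24 in knockout, against 12.60 and 12.56 in wild type. Both knockout arrays lay below both wild-type arrays, which held for 32.5% of all tested genes. Replicate 1 differed from the wild-type mean by -0.044 and replicate 2 by -0.34. The difference was -0.19 ± 0.14, with a limma adjusted p of 0.464. The difference was -0.34 without knockout replicate 1 and -0.044 without knockout replicate 2. Without wild-type replicate 1 or 2 the difference was -0.17 and -0.21. Retnla, a relative of resistin made by macrophages and adipose tissue, had 11.80 and 11.62 in knockout, against 12.31 and 12.80 in wild type, a difference of -0.85 ± 0.21 (adjusted p 0.159). Retnlb, the intestinal relative, was below the brightness limit at 4.33 to 4.37 in all 4 arrays.

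**Figure D2:**
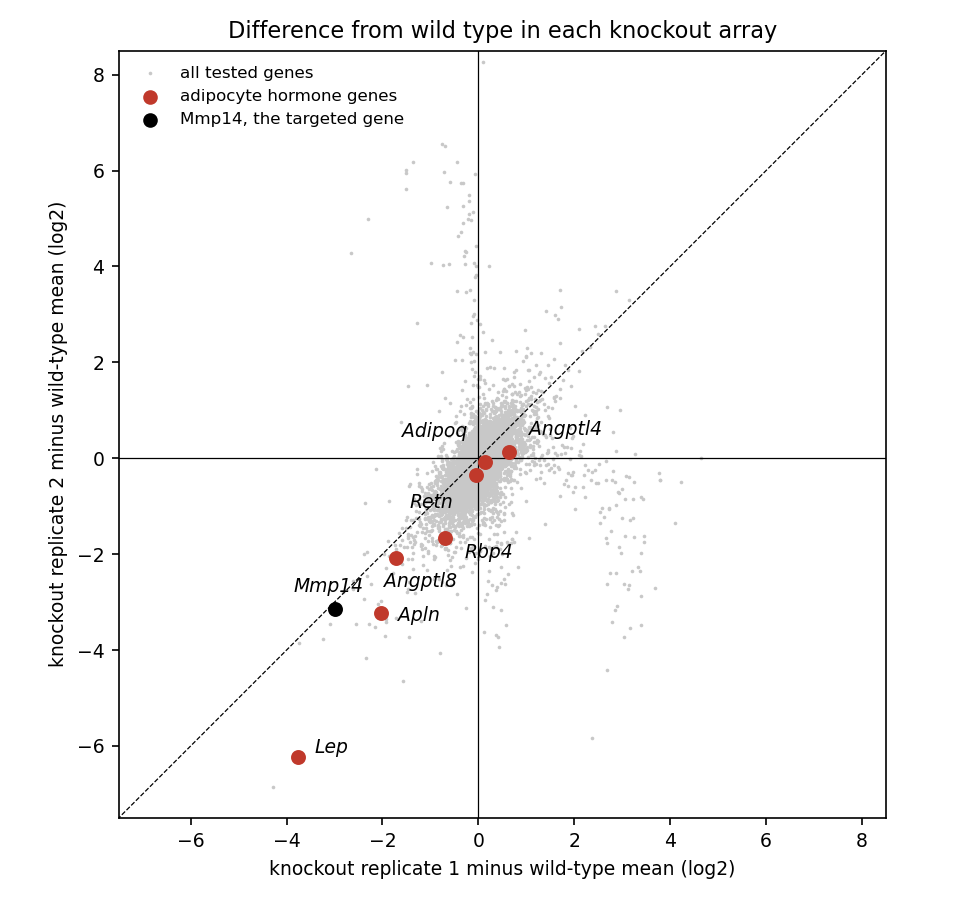
Each tested gene's difference from the wild-type mean (log2) in knockout replicate 1 (horizontal) and knockout replicate 2 (vertical); red points are the adipocyte hormone genes, the black point is Mmp14, grey points are all tested genes and the dashed line marks equal differences. Lep, Apln, Angptl8 and Rbp4 are negative on both axes, at -3.76 and -6.23 for Lep, and lie below the dashed line, as replicate 2 was lower for each.

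Other markers of fat cells differed in both directions. In whole tissue, fewer adipocytes and less RNA of a gene per adipocyte cannot be told apart, so 24 genes of adipocyte identity were read beside the hormones, of which 16 were tested. Of these 7 were lower and 3 higher without overlap, against 32.5% and 26.3% of all tested genes. The 16 markers had a median difference of -0.14 and array medians of -0.03 and -0.28 in knockout replicates 1 and 2. Their mean level was 11.24 and 10.93 in knockout, against 11.33 and 11.40 in wild type. Fabp4, the fatty acid carrier of adipocytes, had 13.48 and 13.30 in knockout and 13.47 and 13.46 in wild type. Its dimmest probe set was higher without overlap, at 11.11 and 11.53 in knockout, against 10.97 and 11.06 in wild type. The remaining Fabp4 probe set overlapped. Fabp4 and Pparg are named outside the naming rule. Pparg, the master regulator of the fat cell, had 10.08 and 9.74 in knockout and 10.07 and 10.16 in wild type. The list itself held genes that differed. Dgat2, which completes triglyceride, had 9.40 and 9.78 in knockout, against 11.84 and 11.73 in wild type (-2.19 ± 0.17, adjusted p 0.101). Thrsp, a lipogenic factor, had 11.34 and 9.66 in knockout, against 12.09 and 12.25 in wild type (-1.67 ± 0.61). Gpd1 had 10.70 and 9.89 in knockout, against 11.18 and 11.31 in wild type. Adig (0.82 ± 0.10, adjusted p 0.105) and the glycerol channel gene Aqp7 (0.79 ± 0.13, adjusted p 0.117) were higher in both knockout arrays. A dimmer Aqp7 probe set differed by 0.06 and overlapped, at 8.02 and 7.24 in knockout, against 7.48 and 7.66 in wild type.

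When each array was centred on the median of these 16 identity markers, which deviated by 0.09 and -0.46 in the knockout arrays from its wild-type average, Lep, Apln and Angptl8 passed in limma. Their differences were -4.81 (adjusted p 0.0157), -2.44 (adjusted p 0.0195) and -1.71 (adjusted p 0.0483). Rbp4 did not pass at -0.98 (adjusted p 0.275), and Retn stood at -0.01. In that scaling 0.262% of tested genes were called lower and 0.135% higher. The SE of Lep fell from 0.89 to 0.54, while that of Adipoq rose from 0.12 to 0.26. Each array's constant was shared by every gene, so these calls do not test the hormones against the fat markers. The scaling moved the median of all tested genes to 0.16, against -0.02 as deposited. Relative to the median of all tested genes Lep differed by -4.97, Apln by -2.60 and Angptl8 by -1.87, values that subtracting 1 constant per array cannot alter.

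Markers of other adipocyte types and of the surrounding cells are needed to place the hormone values. Beside the counts without overlap that follow, 32.5% of all tested genes were lower and 26.3% higher without overlap. Of 12 brown and beige adipocyte genes 7 were lower and 2 higher without overlap, and the list's median lay at -0.74 in each knockout array. The uncoupling protein gene Ucp1 had 10.45 and 7.37 in knockout, against 12.09 and 11.94 in wild type, and the thermogenic genes Cidea (-1.48 ± 0.41) and Dio2 (-1.52 ± 0.14) were lower too. Preadipocyte and stromal genes, 11 in number, had a median difference of -0.12, with 1 higher and 4 lower. Luminal epithelial genes were 10 higher and 0 lower of 14. Their medians were 0.68 and 0.51 in knockout replicates 1 and 2, against 0.38 and -0.38 in wild-type replicates 1 and 2. Among them Epcam had 9.27 and 8.72 in knockout and 8.37 and 7.54 in wild type, above the brightness limit in every array. Foxa1 (1.26 ± 0.52) and Cldn4 (1.00 ± 0.56) were further luminal genes at least 2-fold higher without overlap. Of 11 basal epithelial genes 6 were higher and 1 lower, with Krt14 (1.68 ± 0.81) and Krt5 (1.14 ± 0.71), keratins also found in epidermis, highest in knockout replicate 1. The lymphatic list had 4 of 4 higher, Pdpn (1.12 ± 0.32) the most, and the macrophage list 9 of 15 lower and 1 higher, Aif1 (-1.05 ± 0.14) the lowest. The erythroid list had 4 of 4 lower, with Slc4a1 (-2.08 ± 0.24), Bpgm (-1.43 ± 0.09) and Alas2 (-1.37 ± 0.36) past 2-fold. Of the muscle genes only Myh4 did not overlap, at 4.21 and 12.38 in knockout, against 4.09 and 4.15 in wild type. Schwann cell and nerve genes were 3 higher and 1 lower of 6. Among the last, S100b, which adipocytes also express, had 7.24 and 5.93 in knockout, against 8.75 and 8.69 in wild type. The part of these cell types in the hormone values was not tested.

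**Figure D3:**
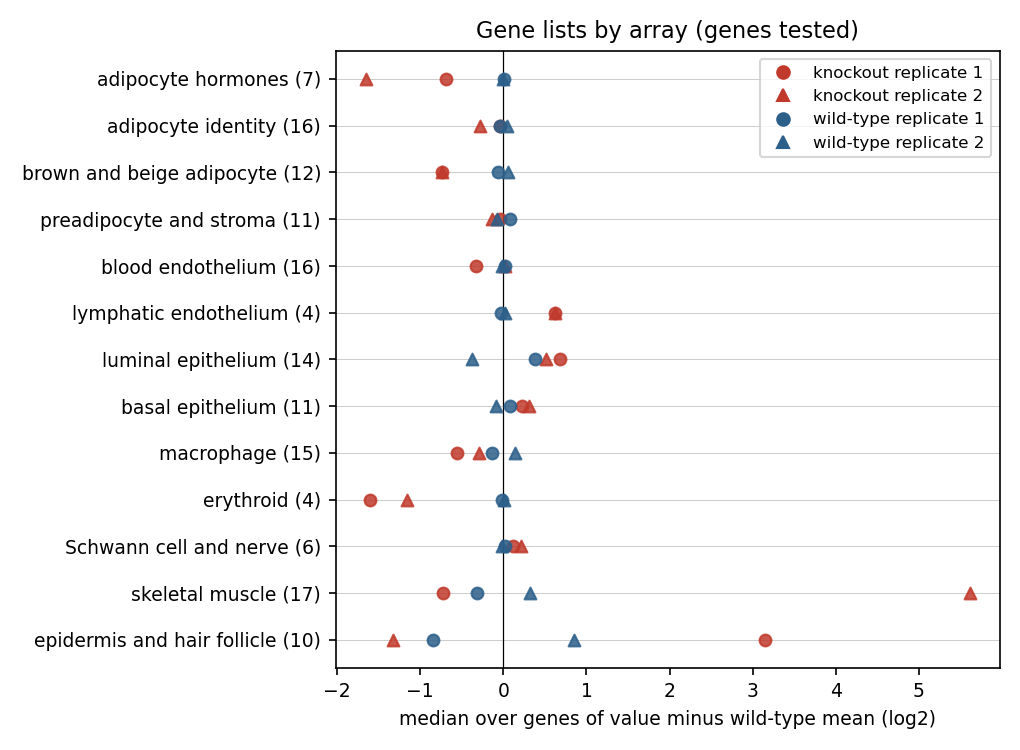
Median over the tested genes of each list of the value minus the wild-type mean (log2) in every array; red marks are knockout, blue wild type, circles replicate 1, triangles replicate 2, and numbers in brackets count tested genes. The hormone genes lie at -0.69 and -1.66 in the knockout arrays and the adipocyte identity markers at -0.03 and -0.28, while muscle is high in knockout replicate 2 and epidermis in knockout replicate 1.

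The receptors listed around these hormones include those for insulin and chemerin, which are not products of the 10 chosen genes. Of 16 listed receptor genes 11 were tested, of which 2 were higher and 4 lower without overlap, against 26.3% and 32.5% of all tested genes. The 11 receptor genes had a median difference of -0.07, and 0 were called. Lepr, the leptin receptor, had 5.03 and 5.59 in knockout and 5.30 and 4.98 in wild type, near the background, and overlapped. Adipor1 overlapped as well, at 9.71 and 9.92 in knockout and 9.77 and 9.79 in wild type. Adipor2, the adiponectin receptor coupled to fatty acid oxidation, was higher in both knockout arrays, at 11.20 and 11.10, against 10.52 and 10.57 in wild type (0.61 ± 0.10, adjusted p 0.117). Cdh13, which binds adiponectin on endothelium and muscle, differed by 0.21 ± 0.19 and overlapped. Cap1, a receptor reported for human resistin, differed by -0.18 ± 0.10. The chemerin receptor gene Cmklr1 was lower in both knockout arrays (-0.59 ± 0.18, adjusted p 0.192), and Ccrl2, which binds chemerin, overlapped (-0.07 ± 0.13). The integrin gene Itgb1 (-0.32 ± 0.10) and the complement receptor gene C3ar1 (-0.11 ± 0.10) were lower without overlap. Stra6, a receptor for Rbp4, was below the brightness limit, as were C5ar1 and Gpr1.

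The insulin receptor gene Insr showed the widest difference among the tested genes of the receptor list. It had 9.47 and 9.65 in knockout, against 8.19 and 8.35 in wild type, a difference of 1.28 ± 0.12 (limma adjusted p 0.101). The knockout arrays lay within 0.18 of each other. Its 2 dimmer probe sets lay below the brightness limit and differed by -0.01 and 0.11. Irs1, the docking protein of this receptor, had 10.70 and 10.63 in knockout, against 9.71 and 9.80 in wild type (0.91 ± 0.10, adjusted p 0.102).

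Lipoprotein lipase and its partners had a median difference of -0.09. Of 10 tested genes of the lipase system 5 were lower and 0 higher without overlap, against 32.5% and 26.3% of all tested genes, and 5 overlapped. Lpl had 13.11 and 12.87 in knockout, against 13.22 and 13.17 in wild type (-0.20 ± 0.12, adjusted p 0.402), and Gpihbp1, its anchor on capillaries, differed by -0.25 ± 0.13. The lipase maturation factor gene Lmf1 differed by -0.36 ± 0.21 and the fatty acid transporter gene Cd36 by -0.15 ± 0.12. Vldlr, a receptor for triglyceride-rich lipoproteins, had 8.31 and 7.76 in knockout, against 9.46 and 9.37 in wild type (-1.38 ± 0.22, adjusted p 0.117). All 5 of its probe sets lay below wild type in both knockout arrays. Apoc3, an apolipoprotein that slows the lipase, had the highest difference of the list at 1.02 ± 0.83, with 4.53 and 6.86 in knockout, against 4.63 and 4.72 in wild type, so it was high in knockout replicate 2 alone. The lipase cofactor gene Apoc2 (0.12 ± 0.37), Apoa5 (0.04 ± 0.14), Sel1l (0.01 ± 0.10) and Furin (-0.02 ± 0.11) also overlapped. Among 4 other tested angiopoietin and angiopoietin-like genes, Angptl1 had 5.64 and 5.25 in knockout, against 6.84 and 6.08 in wild type (-1.02 ± 0.32, adjusted p 0.199). Angpt2 differed by -0.18 ± 0.10, and Angptl6 and Angpt4 overlapped. Angptl7 and Angpt1 were below the brightness limit.

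**Figure D4:**
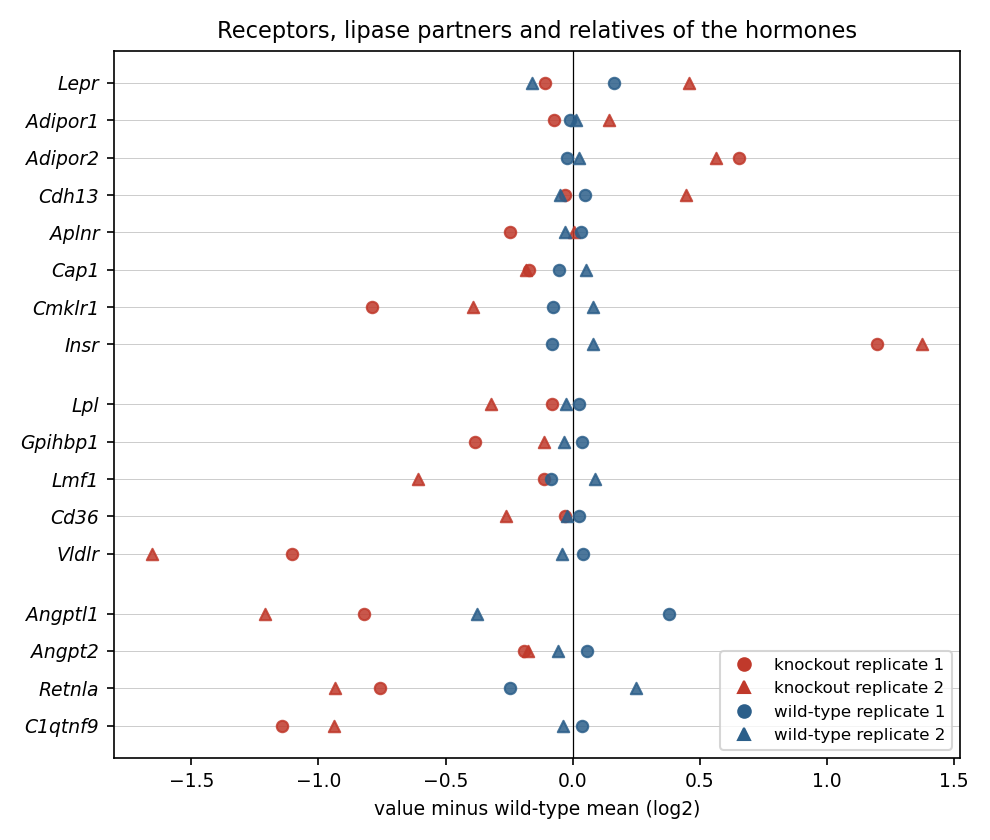
Value minus the wild-type mean (log2) in every array of listed receptors, lipase partners and relatives of the hormones. The receptors include those for insulin (Insr) and chemerin (Cmklr1). Red marks are knockout, blue wild type, circles replicate 1 and triangles replicate 2. Insr and Adipor2 lie above wild type in both knockout arrays, Vldlr, Angptl1, Retnla and C1qtnf9 below it, and Lepr, Adipor1, Cdh13 and Aplnr overlap.

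Further adipose factors went both ways. Of 28 tested genes of 44 listed, 8 were higher and 9 lower without overlap, near the 26.3% and 32.5% of all tested genes. The 28 genes had a median of -0.01. Agt, the angiotensin precursor, had 7.64 and 7.82 in knockout, against 6.32 and 6.47 in wild type (1.33 ± 0.12, adjusted p 0.101). Apoe (0.68 ± 0.12, adjusted p 0.123) and the secreted factor gene Metrnl (0.57 ± 0.14, adjusted p 0.158) were also higher in both knockout arrays. Lower were the vessel peptide gene Adm, at 7.13 and 6.51 in knockout, against 7.91 and 8.0 in wild type, the chemokine gene Ccl2 (-0.90 ± 0.20) and Fndc5 (-0.95 ± 0.09), the precursor of irisin, whose knockout values of 5.04 and 5.06 were near the background. Among 8 other tested genes of the C1q family, to which adiponectin belongs, 3 were higher and 2 lower. C1qtnf9, the relative closest in structure to adiponectin, had 7.37 and 7.57 in knockout, against 8.55 and 8.48 in wild type (-1.04 ± 0.12, adjusted p 0.102). C1qtnf3, another relative, went the other way, with 5.33 and 6.38 in knockout, against 5.29 and 4.18 in wild type (1.12 ± 0.55, adjusted p 0.324).

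Regulators of these genes, 21 tested, were 7 higher and 6 lower without overlap, against 26.3% and 32.5% of all tested genes. The 21 regulators had a median of -0.03. Hsd11b1, which makes active glucocorticoid in fat, had 8.83 and 9.39 in knockout, against 7.52 and 8.04 in wild type (1.33 ± 0.28, adjusted p 0.145). Cebpb had 10.11 and 10.11 in knockout, against 10.46 and 10.50 in wild type (-0.37 ± 0.09, adjusted p 0.157). The adipocyte factor gene Ebf1 (0.37 ± 0.11) and Klf4 (0.32 ± 0.11) were higher and Ppara (-0.69 ± 0.22) lower in both knockout arrays. The lists drawn up around the hormones without values gave little more. Among 7 tested complement genes, listed around Cfd, 1 was higher and 4 lower, with Cfb, a factor of the alternative pathway, at 7.16 and 5.99 in knockout, against 7.59 and 8.13 in wild type. The 1 higher gene was C4b (1.42 ± 0.30), which belongs to the classical and lectin pathways, and it has a near-identical copy and cannot be assigned with certainty. Of 6 tested genes of NAD metabolism 2 were higher and 1 lower, the last being Nnmt at 10.77 and 8.99 in knockout, against 11.01 and 10.90 in wild type. Of 5 imprinted genes 2 were higher and 1 lower. Among the imprinted genes Peg3 had 11.30 and 11.24 in knockout, against 10.21 and 10.08 in wild type (1.13 ± 0.10, adjusted p 0.101), and its second probe set differed by 1.19.

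The genes whose pattern over the 4 arrays lay nearest to that of Lep were Serpina1b, H3c15, Tmem45b, Paqr9 and Ucp1. Likeness was the Euclidean distance between the 4 deviations from the wild-type mean (log2) of a gene and those of Lep, over the 11078 tested genes. Serpina1b was 0.95 away, H3c15 2.43, Tmem45b 2.50, Paqr9 2.52 and Ucp1 2.71. Serpina1b had 7.37 and 4.80 in knockout, against 11.999 and 11.318 in wild type, but it and H3c15 have close paralogs whose transcripts may hybridise to the same probes, which makes both names uncertain. Tmem45b had 8.96 and 7.14 in knockout, against 11.44 and 11.18 in wild type. Of the other hormones Apln was the nearest, 16th by distance at 3.47, followed by Angptl8, 41st at 4.64, and Rbp4, 154th at 5.52.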

How the data were processed

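RNA of the intact inguinal mammary gland was hybridised to 4 Affymetrix mouse arrays, 2 per genotype. The deposited values are on a log2 scale, as their range of 3.16 to 13.7 shows. The submitters' processing notes name RMA and the package affy, without versions. RMA equalises the arrays, so a shift of most genes would not remain, and it compresses differences near the background. Detection calls were not used, and precision is limited by having 2 arrays a genotype.

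Of 45141 probe sets 28898 had 1 gene in the annotation of the array design, 551 several and 15692 none; only the first were named. Per gene the probe set with the highest mean was taken, and limma tested the 11078 genes whose mean reached 4.94, which is the median of all probe sets (limma 3.58.1, R 4.3.3, lmFit, eBayes, no covariate, Benjamini-Hochberg at 0.05). All 7 hormone genes passed this limit. Another limma fit covered all non-control probe sets whose mean reached the same limit. The test was checked on simulated data. Replicates may come from separate animals, and p-values measure the spread between these arrays only.

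The hormone genes and 23 lists around them (receptors, lipase system, families, other adipokines, regulators, cell type markers and others) were chosen with earlier results of these data known. The naming rule allowed any gene of the receptor, lipase, resistin and angiopoietin-like lists and, in other lists, up to 6 with the smallest p, and took those at least 2-fold apart without overlap and the 5 genes most like Lep. Alternatives were other brightness filters, the mean of probe sets, no probe sets that match several transcripts, 4 scalings, other priors, a block for the replicate number, array weights and each array left out.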

Additional observations from a re-analysis of the deposited data

How the results depend on the processing

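Of 126 values of Mmp14 and the 7 hormone genes under an alternative, 125 had the direction given in the report. The exception was Adipoq, at -0.068 without knockout replicate 1. The brightness filters, the priors and the replicate block left each difference as it was, so the direction could not change there. The count of 125 is therefore no measure of support. No gene passed as deposited, and none of these genes passed under other filters, the mean of probe sets, other scalings between arrays, priors or array weights, apart from centring on adipocyte identity markers. Centred so, Mmp14 (-2.88), Lep (-4.81), Apln (-2.44) and Angptl8 (-1.71) passed, with 3 hormone genes, and 15 genes higher and 29 lower of all tested. The SE of Lep fell there from 0.89 to 0.54, and the cause of the calls was not tested. With an array left out, differences ranged from -6.23 to -3.76 for Lep, -3.22 to -2.03 for Apln, -2.08 to -1.71 for Angptl8, -1.66 to -0.69 for Rbp4, -0.34 to -0.044 for Retn, -0.068 to 0.15 for Adipoq, 0.13 to 0.63 for Angptl4 and -3.17 to -2.97 for Mmp14. Adjusted p-values of Lep then ran from 0.00252 to 0.846. Counts of hormone genes called ranged from 0 to 1 higher and 0 to 5 lower, and of all tested genes from 0 to 1455 higher and 0 to 2725 lower; among these fits, calls appeared where a knockout array was left out, which leaves that genotype with 1 array, and none where a wild-type array was. The replicate number as a block gave Lep -5.00 with an adjusted p of 0.227 and no calls. The numbers are not stated to pair animals, and the replicate differences of the genotypes correlated at -0.0885 across genes. Angptl8 was not tested at the 75th percentile filter, and Angptl4 not without probe sets that match several transcripts. Bright probe sets such as those of Adipoq and Retn and dim ones such as Lep in knockout replicate 2 limit what differences the arrays can show.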
